A study of Caenorhabditis elegans with 2 samples.

Results

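The heterochronic genes of *C. elegans* are the regulators that tell larval cells which stage they are in. The 10 genes described here, *lin-14*, *lin-28*, *hbl-1*, *lin-41*, *lin-29*, *lin-46*, *lin-66*, *daf-12*, *puf-9* and *alg-1*, were chosen by name because their levels or activities are known to change between larval stages, and all 10 were found among the 46904 genes of the expression table. RNA-seq was carried out on whole wild-type (N2) worms raised on abundant *L. plantarum* to which a trace, 0.2 µl, of live *E. coli* was added. The *E. coli* were either a *pdxH* mutant, which lacks a gene of vitamin B6 synthesis, or the wild-type parent strain BW25113. Both diets share *L. plantarum* as the main food, and each was sequenced as 1 library from a pool of worms. No value therefore has a replicate, no test between the diets was possible and no p-value for the diets is given. The study describes the worms of both diets as collected at the same stage, which is not named. The sources used here do not give the age at collection. The study also reports that worms arrested early on *L. plantarum* with a trace of *pdxH* mutant and grew with wild-type *E. coli*. Diet and developmental progress therefore cannot be told apart in these libraries. In whole worms, fewer cells that express a gene and less RNA per cell cannot be told apart.

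Each larval stage repeats a program of cell divisions in the seam, a row of epidermal stem cells, with stage-specific changes. In this background, high LIN-14 marks the earliest larval fates, LIN-28 and HBL-1 hold cells in the next ones, and the microRNAs *lin-4* and *let-7* with its relatives lower these proteins as development proceeds. LIN-41 then keeps LIN-29 low until *let-7* represses it, and LIN-29 switches the seam to its adult fate. The question asked of the RNA was therefore whether the early genes *lin-14*, *lin-28* and *hbl-1* and the late gene *lin-29* differed between the diets.

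The library with the *pdxH* mutant held 46372171 reads assigned to genes and the library with wild-type *E. coli* held 40707752. Levels are given as reads per 1000000 assigned reads (RPM), or, where genes are compared with each other, as RPM per kilobase of exon (RPKM). Differences are log2 ratios, *pdxH* mutant over wild-type *E. coli*, of the deposited values plus 1, with a 95% interval of the counting error alone. Differences between worm cultures add to this error and were not measured. A minimum of 100 reads, added over both libraries, was met by 13227 genes. Their median log2 ratio was 0.01, and the middle 50% of them ran from -0.16 to 0.18, so a single gene with a ratio inside that range stood within the bulk of the transcriptome.

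The late gene *lin-29* was lower with the *pdxH* mutant, while *lin-28* and, by less, *lin-14* were higher and *hbl-1* was slightly lower. A log2 ratio past 0.5 in size was reached by 2 of the 10 genes, *lin-29* and *lin-46*, both of them lower. Of all 13227 genes, 8.89% were lower and 4.68% were higher past the same size. All 10 genes had 500 reads or more when both libraries were added, and among the 10147 genes with that many reads 7.13% were lower and 2.48% higher. The counting interval lay below 0 for 5 of the 10 genes, where 27% of all genes did, and above 0 for 3 genes, where 28.7% of all genes did. The median log2 ratio over the 10 genes was -0.02, with 5 above 0 and 5 below. These shares describe 10 genes chosen with earlier results of the same libraries known.

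**Figure D1:**
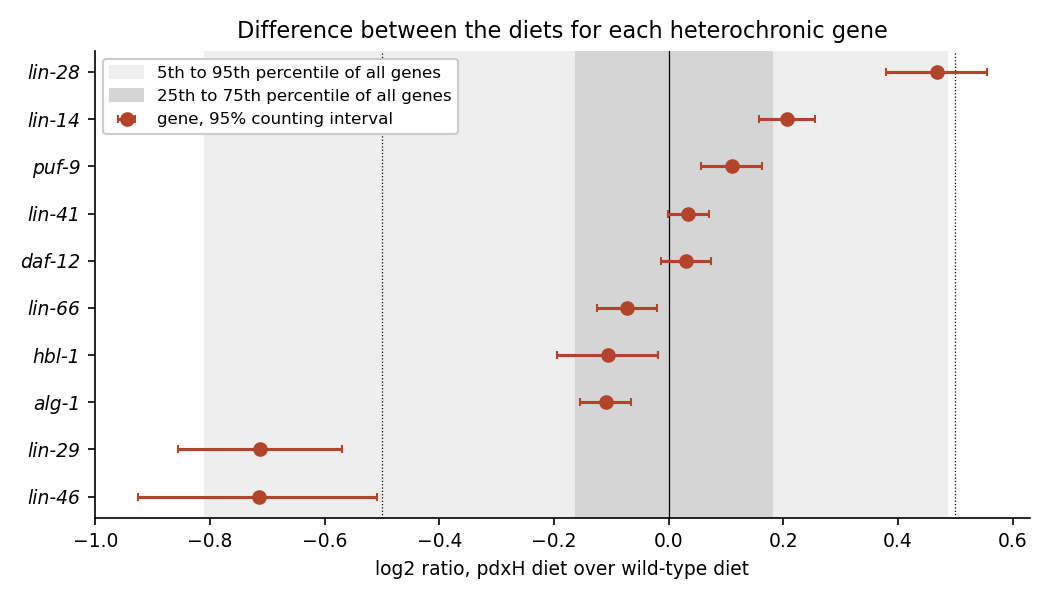
log2 ratio (x axis, *pdxH* mutant over wild-type *E. coli*) of each of the 10 heterochronic genes, 1 library per diet. Points carry the 95% counting interval, dotted lines mark -0.5 and 0.5, and the shaded bands hold the middle 50% and 90% of the 13227 genes. *lin-29* and *lin-46* lie near -0.71, *lin-28* lies at 0.47 and the others lie between -0.11 and 0.21.

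*lin-28* encodes an RNA-binding protein that keeps seam cells in their early larval fates and blocks the maturation of *let-7*. It had 2700 reads (58.2 RPM) with the *pdxH* mutant and 1714 reads (42.1 RPM) with wild-type *E. coli*, a 1.38-fold higher level and a log2 ratio of 0.47 (95% interval 0.38 to 0.56). Only 5.54% of the 13227 genes had a ratio at least as high, and the point value lay just short of 0.5. *lin-28* (WBGene00003014) lies on chromosome I from 8407630 to 8410804 in WBcel235, and 16 bases of its 1453 bases of exon are shared with F02E9.1 on the opposite strand. F02E9.1 itself had 754 and 721 reads with the *pdxH* mutant and with wild-type *E. coli*, a log2 ratio of -0.12 (95% interval -0.27 to 0.03). Its part in the count of *lin-28* was not tested.

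*lin-14*, whose nuclear protein specifies the earliest larval fates and is the classic target of *lin-4*, had 7918 reads (171 RPM) with the *pdxH* mutant and 6025 reads (148 RPM) with wild-type *E. coli*. The log2 ratio was 0.21 (95% interval 0.16 to 0.25), a 1.15-fold higher level, and 22.1% of all genes had a ratio at least as high. The gene (WBGene00003003, chromosome X, 11465560 to 11485871) has a pair of small nucleolar RNA genes on its own strand that lie over its exons. T25C12.11 had 935 and 772 reads and T25C12.12 had 1261 and 943 reads on the *pdxH* and wild-type diets, with log2 ratios of 0.09 and 0.23, and how reads were divided between them and *lin-14* is not given in the sources used here.

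*hbl-1*, a hunchback-like zinc finger gene that acts after *lin-14* and is repressed by the *let-7* family, went the other way from *lin-28*. The gene (WBGene00001824) lies on chromosome X from 5822142 to 5827755. It had 2177 reads (46.9 RPM) with the *pdxH* mutant and 2057 reads (50.5 RPM) with wild-type *E. coli*, a log2 ratio of -0.11 (95% interval -0.19 to -0.02). Its ratio lay inside the middle 50% of all genes, and the 3 early genes thus did not move as a group. Their median log2 ratio was 0.21, with 2 of the 3 higher and none past 0.5.

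*lin-41* encodes a TRIM-NHL RNA-binding protein that is a *let-7* target and restrains *lin-29*, and it also acts in oocytes. The gene (WBGene00003026, chromosome I, 9334800 to 9342496) had the most reads of the 10 genes on both diets, with 13856 reads (299 RPM) with the *pdxH* mutant and 11875 reads (292 RPM) with wild-type *E. coli*. The log2 ratio of 0.03 had a 95% interval of -0.0008 to 0.07, so no difference between the libraries was detectable beyond counting error.

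The late gene *lin-29* encodes the zinc finger factor that drives the switch from larval to adult epidermis. It had 684 reads (14.8 RPM) with the *pdxH* mutant and 984 reads (24.2 RPM) with wild-type *E. coli*, a 1.64-fold lower level and a log2 ratio of -0.71 (95% interval -0.86 to -0.57). Of the 13227 genes, 5.94% had a lower ratio. *lin-29* (WBGene00003015) lies on chromosome II from 11917642 to 11935343 with 3 annotated transcripts, whose reads the table does not separate. The protein-coding gene *hmg-12* overlaps it on the opposite strand and shares 2 bases of exon with it. *hmg-12* was lower as well, with 904 reads with the *pdxH* mutant and 1111 with wild-type *E. coli* (log2 ratio -0.48, 95% interval -0.61 to -0.36), and its part in the count of *lin-29* was not tested.

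*lin-46*, which encodes a gephyrin-like protein that acts downstream of LIN-28 and limits HBL-1, was the other gene past 0.5. It was the least abundant of the 10, with 321 reads (6.92 RPM) with the *pdxH* mutant and 463 reads (11.4 RPM) with wild-type *E. coli*. Its log2 ratio was -0.71 (95% interval -0.93 to -0.51), a 1.64-fold lower level. The gene (WBGene00003031, chromosome V, 12968855 to 12970730) overlaps no other annotated gene (piRNA genes were not considered).

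Because a ratio of 2 genes within a library does not depend on library size, early and late genes were also set against each other inside each library. *lin-14*, *lin-28* and *hbl-1* together had 18.7 reads for each read of *lin-29* with the *pdxH* mutant and 9.96 with wild-type *E. coli*. On the log2 scale the balance was 4.23 with the *pdxH* mutant and 3.32 with wild-type *E. coli*, a difference of 0.91 (95% counting interval 0.76 to 1.06), or 1.88-fold. This difference includes the log2 ratio of -0.71 of *lin-29* itself. The early genes summed to 276 RPM with the *pdxH* mutant and 241 RPM with wild-type *E. coli*. Per length, the RPKM of *lin-28* was 6.26 times that of *lin-29* with the *pdxH* mutant and 2.76 times with wild-type *E. coli*. For *hbl-1* the same multiples were 1.64 and 1.08, and *hbl-1* itself was slightly lower with the *pdxH* mutant. For *lin-41*, whose own log2 ratio was 0.03, they were 9.70 and 5.78.

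The remaining genes act as modulators of this sequence and moved little. *puf-9*, a Pumilio-family RNA-binding protein that represses *hbl-1*, had 6433 reads (139 RPM) with the *pdxH* mutant and 5232 (129 RPM) with wild-type *E. coli*, a log2 ratio of 0.11 (95% interval 0.06 to 0.16). *daf-12*, the nuclear hormone receptor that couples dafachronic acid signals to stage progression and to dauer formation, had 9321 reads (201 RPM) with the *pdxH* mutant and 8011 (197 RPM) with wild-type *E. coli*. Its log2 ratio of 0.03 had an interval of -0.01 to 0.07. *lin-66*, which acts to lower *lin-28*, had 6267 reads (135 RPM) with the *pdxH* mutant and 5785 (142 RPM) with wild-type *E. coli*, a ratio of -0.07 (95% interval -0.12 to -0.02). *alg-1*, an Argonaute that carries *lin-4* and the *let-7* family, had 8430 reads (182 RPM) with the *pdxH* mutant and 7983 (196 RPM) with wild-type *E. coli*. Its ratio was -0.11 (95% interval -0.15 to -0.07), and that of its close paralog *alg-2*, with which reads could be shared, was -0.16 (95% interval -0.24 to -0.07). In WBcel235, *puf-9* (5841592 to 5845987), *daf-12* (10635908 to 10666875) and *alg-1* (13949110 to 13956261) lie on chromosome X, where 5 of the 10 genes are, and *lin-66* lies on chromosome IV (13888079 to 13893986). The ratios of *puf-9*, *daf-12*, *lin-66* and *alg-1* all lay inside the middle 50% of all genes.

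Per length, the 10 genes fell into an abundant and a scarce set on either diet. *lin-41* was highest at 62.1 RPKM with the *pdxH* mutant and 60.6 with wild-type *E. coli*. *lin-14*, *daf-12*, *puf-9*, *lin-28*, *lin-66* and *alg-1* followed between 27.1 and 46.6 RPKM with the *pdxH* mutant and between 29.0 and 44.3 with wild-type *E. coli*. *hbl-1*, *lin-29* and *lin-46* were lowest, at 10.5, 6.40 and 5.07 RPKM with the *pdxH* mutant and 11.3, 10.5 and 8.33 with wild-type *E. coli*. With the *pdxH* mutant the counting intervals of the neighbors *lin-14* and *daf-12*, and of *puf-9* and *lin-28*, overlapped. With wild-type *E. coli* those of *lin-14* and *lin-66*, *lin-66* and *puf-9*, *alg-1* and *lin-28*, and *hbl-1* and *lin-29* overlapped. *lin-28* ranked number 5 in this order with the *pdxH* mutant and number 7 with wild-type *E. coli*, and *lin-29* was apart from *hbl-1* on the *pdxH* diet alone.

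**Figure D2:**
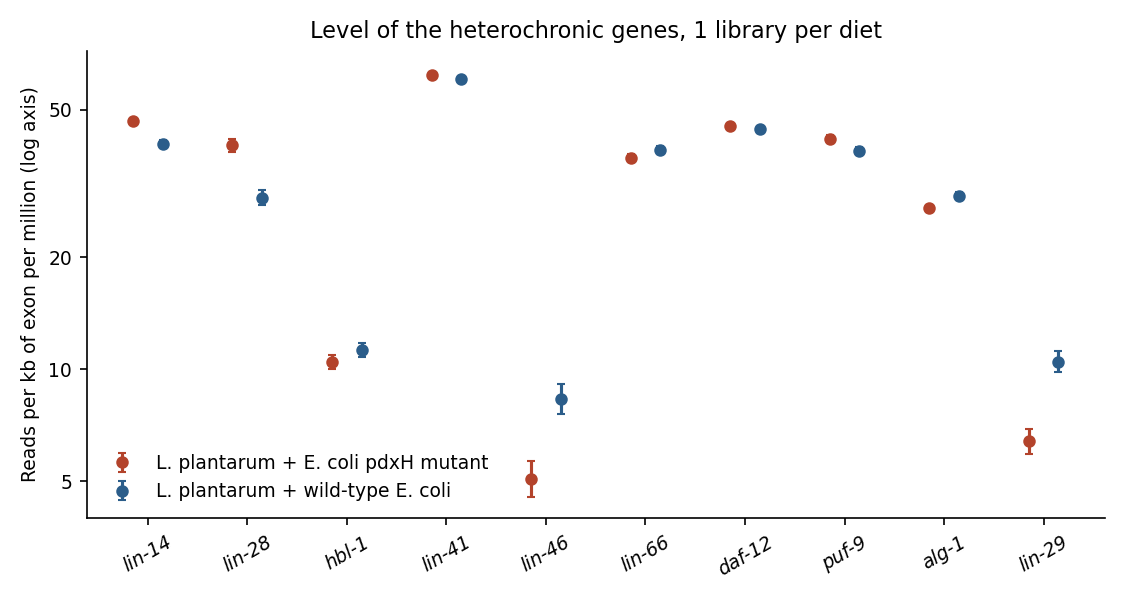
Level of each heterochronic gene in RPKM (y axis, log scale) in the *pdxH* library (left point of each pair) and the wild-type library (right point), with 95% Poisson counting intervals. *lin-28* has the higher point with the *pdxH* mutant, *lin-46* and *lin-29* have the lower one, and the pairs of the other genes lie close together.

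The pathway was followed further through 31 other genes with a role in developmental timing, all of which met the minimum of 100 reads. Their median log2 ratio was -0.18, against 0.01 for all genes. Of the 31, 9 were above 0 and 22 below, where 6853 of the 13227 genes were above and 6374 below. Past 0.5, 4 of the 31 were lower and none was higher, where 8.89% of all genes were lower and 4.68% higher. The counting interval lay below 0 for 18 and above 0 for 5, where it did for 27% and 28.7% of all genes. The highest of them was *rnt-1*, a RUNX factor for seam cell division, with 269 reads with the *pdxH* mutant and 193 with wild-type *E. coli* and a log2 ratio of 0.29 (95% interval 0.02 to 0.56).

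Of these 4 lower genes, *lep-5*, *mab-10* and *lin-42* differed by more than any of the 10 genes above, and *myrf-1* by less than *lin-29*. *lep-5*, a long noncoding RNA that times the maturation of the male tail tip, was lowest, with 2611 reads (56.3 RPM) with the *pdxH* mutant and 8598 (211 RPM) with wild-type *E. coli* and a log2 ratio of -1.91 (95% interval -1.97 to -1.84). *mab-10*, which encodes the NAB-family partner of LIN-29 in the adult switch, had 210 reads (4.53 RPM) with the *pdxH* mutant and 536 (13.2 RPM) with wild-type *E. coli*. Its ratio was -1.54 (95% interval -1.78 to -1.31), lower than for all but 0.597% of genes. *lin-42*, the Period homolog whose RNA rises and falls with each molt, had 4188 reads (90.3 RPM) with the *pdxH* mutant and 8660 (213 RPM) with wild-type *E. coli*, a ratio of -1.24 (95% interval -1.29 to -1.18). *myrf-1*, a membrane-bound transcription factor needed for *lin-4* transcription, had 6080 reads (131 RPM) with the *pdxH* mutant and 7864 (193 RPM) with wild-type *E. coli*, a ratio of -0.56 (95% interval -0.61 to -0.51). Its paralog *myrf-2* was at 0.09 (95% interval 0.05 to 0.12).

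Other regulators that act upstream of the timing microRNAs shifted by less. *kin-20*, a casein kinase of the *lin-42* group, *dre-1*, an F-box gene, *blmp-1*, the zinc finger factor that DRE-1 targets, and the nuclear receptor genes *nhr-23* and *nhr-85* had log2 ratios between -0.30 and -0.26, and *nhr-25* was at -0.07 (95% interval -0.18 to 0.03). Of the exons of *nhr-85*, 33.2% are shared with *npr-14* on the opposite strand, which had 84 reads with the *pdxH* mutant and 48 with wild-type *E. coli*. Among the genes for microRNA processing and silencing, *dcr-1*, *drsh-1*, *pash-1*, *ain-2* and *xrn-1* had intervals that spanned 0. *tsn-1*, *cgh-1*, *xrn-2* and *vig-1* had intervals below 0, with ratios of -0.41, -0.33, -0.30 and -0.22, and *ain-1*, *nhl-2* and *pup-2* had intervals above 0, with ratios of 0.07, 0.11 and 0.08. The precursors of *lin-4*, *let-7*, *mir-48*, *mir-84* and *mir-241* had 7 reads in all with the *pdxH* mutant and 9 with wild-type *E. coli*, and *lin-4* and *let-7* had none in either library. Mature microRNAs are not measured by these libraries, so the step between them and their targets was not observed.

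**Figure D3:**
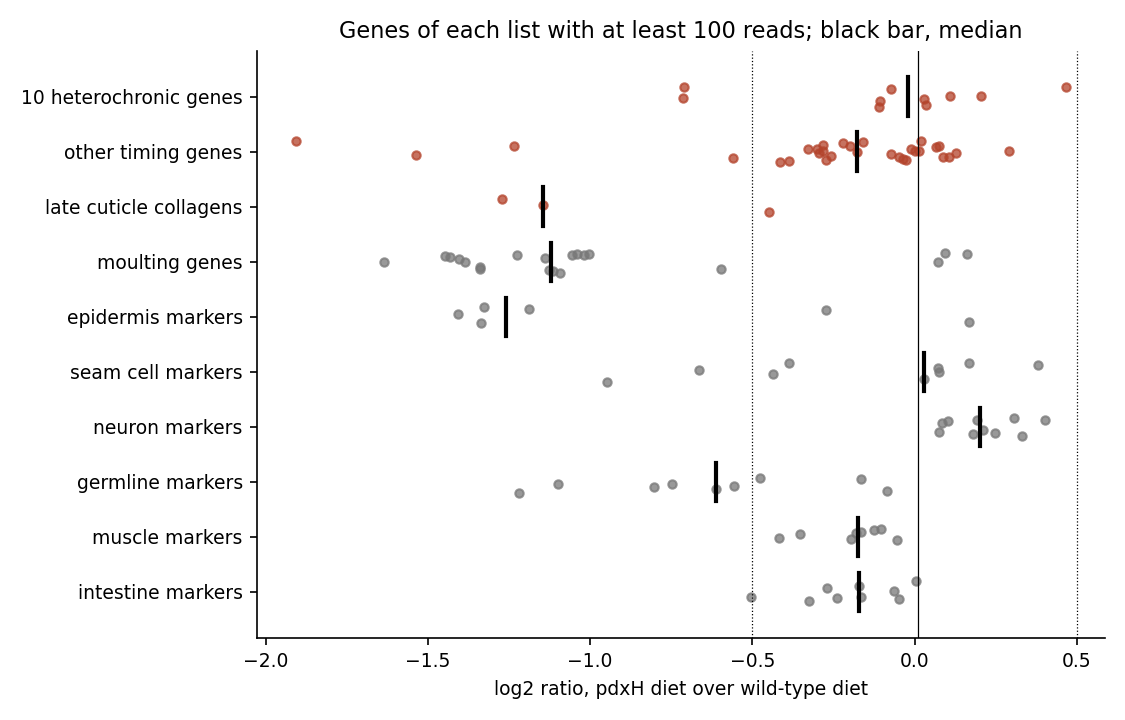
log2 ratios (x axis, *pdxH* mutant over wild-type *E. coli*) of the genes in each list that met the minimum of 100 reads, 1 point per gene with random vertical spread. Black bars mark each list's median, the thin line the median of all genes and the dotted lines -0.5 and 0.5. The heterochronic genes center near 0 with *lin-29* and *lin-46* apart on the left, and the molting genes center at -1.12.

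Genes of the last larval and the adult cuticle, only some of them under *lin-29*, were looked at as a readout of late development. The list of 11 collagens was drawn up with the low values of *col-63* and *bli-6* already known, and it gives no independent evidence of direction. Together these genes had 276 reads with the *pdxH* mutant and 713 with wild-type *E. coli*. Of the 11, 10 had fewer RPM with the *pdxH* mutant, where 6374 of the 13227 genes with at least 100 reads had a log2 ratio below 0. Only 3 of the collagens met the minimum of 100 reads, and their median log2 ratio was -1.15. All 3 had intervals below 0, where 27% of all genes did. *col-38* had 70 reads (1.51 RPM) with the *pdxH* mutant and 137 (3.37 RPM) with wild-type *E. coli*, a ratio of -1.15 (95% interval -1.59 to -0.73). *col-62* had 32 and 69 reads on the *pdxH* and wild-type diets and a ratio of -1.27 (95% interval -1.95 to -0.67), and *col-71* had 130 and 156 reads and a ratio of -0.45 (95% interval -0.80 to -0.11).

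The other 8 collagens had under 100 reads and wider intervals. *col-63* had 0 reads with the *pdxH* mutant and 75 with wild-type *E. coli*, 28.5-fold lower when the *pdxH* library is set at 3 reads. The 95% interval of its log2 ratio had an upper end of -4.50 and no lower end. *bli-6*, *bli-2*, *col-49* and *col-19*, singled out after their values were seen, had 3, 8, 10 and 1 reads with the *pdxH* mutant and 95, 66, 46 and 29 reads with wild-type *E. coli*. Their log2 ratios had 95% intervals of -7.48 to -3.58 for *bli-6*, -4.50 to -2.17 for *bli-2*, -3.54 to -1.38 for *col-49* and -10.4 to -2.45 for *col-19*, the adult collagen most often used as a marker of *lin-29* activity. *col-7* had 9 reads with the *pdxH* mutant and 26 with wild-type *E. coli* (log2 ratio -1.62, 95% interval wholly below 0), and *bli-1* had 8 and 11 reads on the *pdxH* and wild-type diets, with an interval that spanned 0 (-2.17 to 0.80). *col-119* was the exception in direction, with 5 reads with the *pdxH* mutant and 3 with wild-type *E. coli*, too few to tell apart. At under 4 RPM in either library, none of these collagens was abundant, and the 6 vitellogenin genes, which mark adult hermaphrodites, had 39 and 52 reads in all on the *pdxH* and wild-type diets.

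**Figure D4:**
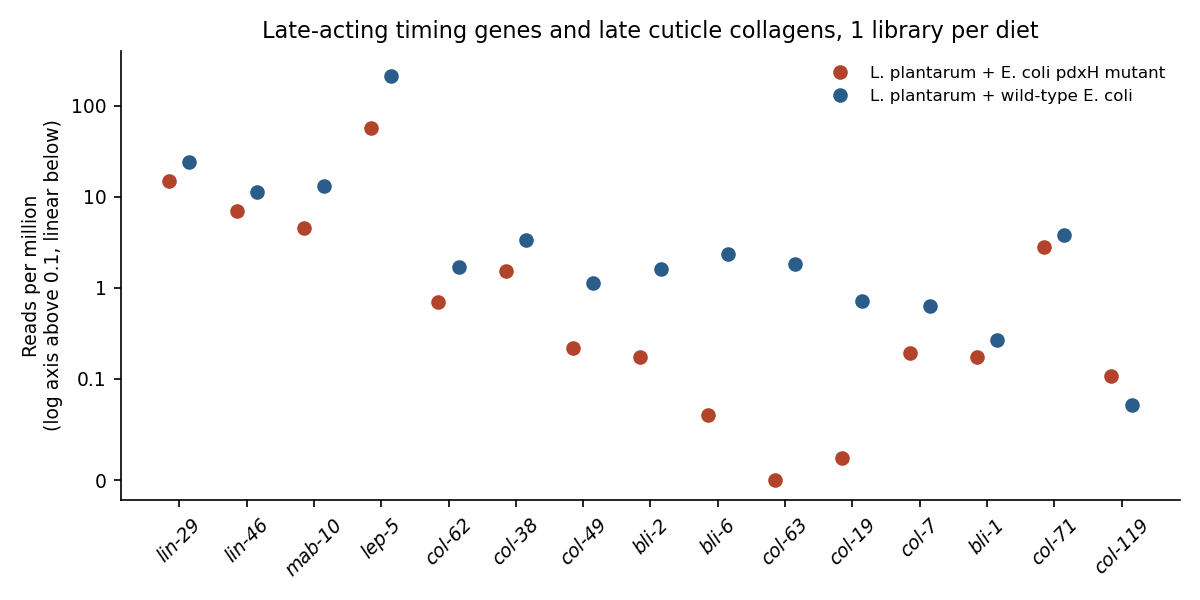
Reads per 1000000 (y axis, log above 0.1 and linear below) of *lin-29*, *lin-46*, *mab-10*, *lep-5* and the 11 late cuticle collagens, with the *pdxH* library as the left point of each pair and the wild-type library as the right point, 1 library each. The left point is lower for every gene shown except *col-119*. The timing genes shown all have ratios below -0.5, so their direction was fixed by the choice. The collagens were listed with the low values of *col-63* and *bli-6* known.

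Markers of tissues and of the molting cycle were looked at in the same comparison. The summed level of 20 molting genes was 2399 RPM with the *pdxH* mutant and 4512 RPM with wild-type *E. coli*. Of the 20, 17 were lower past 0.5, where 8.89% of all genes were. Their median log2 ratio was -1.12, and none was at 0 reads. Cuticle collagens are among these molting genes as well as among the epidermal markers, so the lists are not separate readouts. The 6 epidermal markers found summed to 1072 RPM with the *pdxH* mutant and 2471 RPM with wild-type *E. coli*. Of these 6, 4 were lower past 0.5, against the same 8.89% of all genes, and each of the 4 was a collagen. The epidermal factors *elt-3* and *lin-26* were at 0.17 and -0.27. Seam cell markers split. The transcription factor genes *egl-18*, *elt-6*, *elt-1* and *nhr-73* lay between 0.03 and 0.17 and *ceh-16* at 0.38, while the nuclear receptor gene *nhr-74* was at -0.39 (95% interval -0.61 to -0.17). The Hedgehog-related genes *grd-13*, *grd-10* and *grd-3* were at -0.95, -0.67 and -0.44, and the 9 markers summed to 218 RPM with the *pdxH* mutant and 295 RPM with wild-type *E. coli*. The part of the molting cycle or of epidermal RNA in the lower *lin-29*, *lin-42* and *mab-10* was not tested.

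*lin-14*, *lin-28* and *daf-12* are also expressed in neurons, and *lin-28* and *lin-41* in the germline. The 10 neuronal markers were all above 0, as were 6853 of the 13227 genes. Their log2 ratios were 0.07 to 0.40 with a median of 0.20, and they summed to 2150 RPM with the *pdxH* mutant and 1742 RPM with wild-type *E. coli*. *lin-14*, at 0.21, lay within their range, *lin-28*, at 0.47, above it and *daf-12*, at 0.03, below it. The 10 germline markers summed to 240.4 RPM with the *pdxH* mutant and 345 RPM with wild-type *E. coli*. Of the 9 that met the minimum of 100 reads, 6 were lower past 0.5, where 8.89% of all genes were, and none was above 0. *lin-28* and *lin-41*, at 0.47 and 0.03, lay above all 9 of these germline markers. The germline marker under the minimum, *nos-2*, went the other way. It had 13 reads with the *pdxH* mutant and 2 with wild-type *E. coli*, a log2 ratio of 2.12 (counting interval 0.37 to 5.70). Muscle and intestinal markers had medians of -0.17, pharyngeal markers a median of 0.11 and vulval and gonadal markers a median of 0.06. The 7 of 16 oocyte and sperm genes that met the minimum of 100 reads had a median of -0.13. Of the scarcer genes in that list, only *spe-11* and *vit-4* had intervals clear of 0, in opposite directions. *spe-11* had 26 and 7 reads on the *pdxH* and wild-type diets and a ratio of 1.60 (counting interval 0.46 to 3.15). *vit-4* had 1 and 7 reads and a ratio of -2.21 (counting interval -8.49 to -0.03). Of the 9 vulval and gonadal markers, 1 was higher and 1 was lower past 0.5, where 4.68% and 8.89% of all genes were. Markers of each of these tissues were present in both libraries. The part of tissue proportions in the ratios of the heterochronic genes was not tested.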

How the data were processed

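Per the submitters' processing notes, Trimmomatic was used for trimming, STAR 2.5.3a for mapping (build ce11) and HTSeq for counting, and the deposited table was written by GFOLD 1.1.4. The deposited signal values are named RPKM but carry no gene length, because the length was set to 20 bases for every gene. Dividing by the value of 1 read (1.08 with the *pdxH* mutant and 1.23 with wild-type *E. coli*) gave whole reads for 100% of values up to 20 reads and for 97.6% and 97.8% of all values (tolerance 0.02 reads), and they added up to the library totals in the header. Columns of the authors' own comparison (fold changes and error rates) were not used. Strand use and the treatment of overlapping genes in counting are not given in the sources used here.

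log2 ratios used a pseudocount of 1. The 95% intervals are exact (Clopper-Pearson for ratios, Poisson for levels, normal approximation for the balance) and cover counting error only. Exon lengths and positions came from the Ensembl release 115 annotation of WBcel235, the same assembly as ce11, and symbols were found for 44017 of 46904 identifiers, with *let-7* matched by position. The marker genes *bus-8* and *opt-2* had no match. The rule for named genes took the 10 members, from each further list the extremes and up to 6 genes past 0.5 with at least 100 reads, and *lin-42*, *blmp-1*, *dre-1*, *mab-10*, *nhr-23*, *nhr-25*, *nhr-85*, *kin-20*, *alg-2* and the 5 microRNA genes. The molting, neuron, germline, muscle, intestine, pharynx, and vulva and gonad lists are given as counts, medians or sums without gene names, except for *nos-2*. The oocyte and sperm list is given in the same way, beside a sum over its vitellogenins and the values of *spe-11* and *vit-4*. Other names outside the rule were chosen after their values were seen. The members and lists were chosen with earlier results of these data known. An exact binomial test on the reads, with Benjamini-Hochberg adjustment, compares the 2 libraries and not the diets. Of 23141 genes with reads, 677 higher and 1360 lower genes had an adjusted p under 0.05 together with a log2 ratio past 0.5. Scaling alternatives used edgeR 4.0.16 and DESeq2 1.42.0, other steps scipy 1.17.1. The procedures were tested on simulated reads that varied by counting error alone, which cannot show how they perform with differences between worm cultures.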

Additional observations from a re-analysis of the deposited data

How the results depend on the processing

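No paired analysis was possible because the comparison rests on 1 library per diet, which also means that none could be left out. TMM factors, median-of-ratios factors, centering on the median of all genes and pseudocounts of 0.1 or 10 moved the log2 ratios of the 10 genes by at most 0.014, so that *lin-29* stayed between -0.72 and -0.71 and *lin-28* between 0.46 and 0.47. Across these settings and those below, 122 of the recomputed values kept their main result within counting error or within 1.5-fold of a count, and 7 did not. With a log2 ratio past 1 in place of 0.5, 0 members were lower, against 2, and 479 genes were lower and 39 higher, against 1176 and 619. With no filter on reads 4499 genes were lower and 4123 higher, and with at least 500 reads together 723 and 252, since fewer or more scarce genes enter. The 2 lower members, *lin-29* and *lin-46*, were called under each alternative at 0.5, the binomial test included. Every setting reuses the same reads, so none of them measures differences between worm cultures. Depth limits the late collagens, of which 8 of 11 had under 100 reads.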
